A study of Mus musculus with 6 samples.

Results

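The 10 genes described here encode enzymes and chromatin proteins that write, remove or read the marks of gene silencing: the DNA methyltransferases Dnmt1, Dnmt3a and Dnmt3b, the Tet enzymes Tet1, Tet2 and Tet3, and the Polycomb-linked regulators Ezh1, Ezh2, Bmi1 and Asxl1. They were taken from the deposited counts by symbol, and 10 of 10 were found among the 49585 genes listed. The data are bulk RNA sequencing of haematopoietic stem cells (HSCs) sorted from the bone marrow of untreated C57BL/6 mice of 8 to 16 weeks, and the labels name no transgene or deletion in either group. The cells were sorted as negative for lineage markers, CD48 and CD34 and positive for Kit, Sca-1, CD150 and CD201, and were then parted by high or low surface CD38, an enzyme that consumes NAD. There were 3 CD38-positive and 3 CD38-negative libraries, each from cells pooled over 10 mice, and the design text matches them into 3 pairs without saying whether a pair shared mice. A pool averages over its animals, so the spread between libraries is a spread between pools.

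DNA methyltransferases place methyl groups on cytosine in CpG dinucleotides. Dnmt1 copies the pattern onto new strands at replication, Dnmt3a and Dnmt3b set it on unmethylated DNA, and the Tet enzymes oxidise the methyl group as a step toward its removal. Polycomb repressive complex 2 (PRC2) methylates histone H3 at lysine 27 through Ezh1 or Ezh2, Polycomb repressive complex 1 (PRC1), which can hold Bmi1, ubiquitinates histone H2A, and Asxl1 is the partner of the deubiquitinase Bap1 that removes that ubiquitin. In blood, loss of Bmi1 exhausts stem cells, and mutations of the human counterparts of Dnmt3a, Tet2 and Asxl1 are frequent in clonal haematopoiesis.

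None of the 10 regulators differed between CD38-positive and CD38-negative HSCs past the threshold. In edgeR's quasi-likelihood test with the pair as a block, 0 of 10 had a Benjamini-Hochberg adjusted p-value under 0.05 over the 14785 genes tested, where 0.0135% of all tested genes did. DESeq2 and limma-voom with the same block also called 0 of 10. Before adjustment, 0 of 10 members had a p-value under 0.05, against 5.08% of all genes (2.47% higher and 2.61% lower in CD38-positive libraries). The values of the populations overlapped for each of the 10, where 6.53% of all genes had no overlap (3.33% with CD38-positive above, 3.19% with CD38-negative above). All 10 passed the filter on low counts, with 128 to 3709 reads per library, so low counts kept no member out of the test. Fitted log2 fold changes (CD38-positive over CD38-negative) were above 0 for 4 and below 0 for 6, where 50.1% of all genes were above 0, with standard errors of 0.20 to 0.28. The 95% interval of 9 members lay wholly within a 2-fold change in either direction. The exception was Tet1, whose interval ran from -1.11 to 0.07.

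**Figure D1:**
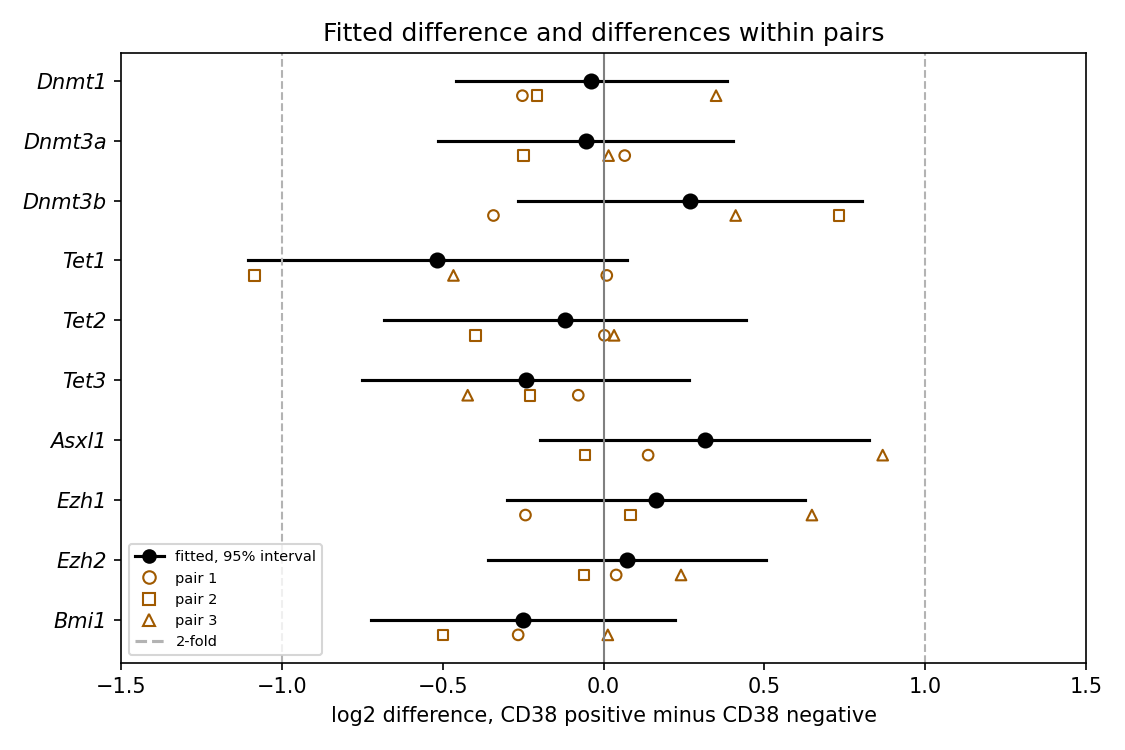
Fitted log2 difference of each regulator between CD38-positive and CD38-negative libraries (filled circles, with 95% intervals from the edgeR fit over 3 pairs) and the difference within each pair (open symbols, drawn just below); dashed lines mark a 2-fold change. All 10 intervals cross 0, and the interval of Tet1 alone passes a dashed line.

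The libraries themselves were compared first where this bears on the members. Total counts were 16771180 to 18558610 per library. Cd38 had 37.0, 46.3 and 58.3 CPM (reads scaled to the adjusted library size) in CD38-positive replicates 1, 2 and 3 and 24.2, 35.6 and 23.9 in their CD38-negative partners, so every CD38-positive library lay above every CD38-negative one. It differed by 0.76 on the log2 scale, with an edgeR adjusted p of 0.893. All 12 HSC marker genes examined, among them Hlf, Mecom and Procr, were detected. Their summed level was 860, 1085 and 1859 CPM in the CD38-positive libraries and 1082, 2389 and 1630 CPM in the CD38-negative ones. Transcripts of other blood cells were present too, and those of granulocytes and monocytes summed far above the HSC markers in every library. The 14 granulocyte and monocyte genes came to 79997 to 176183 CPM in CD38-positive and 86238 to 138923 CPM in CD38-negative libraries. Of these 14, 0 were at 0 reads. The 12 B and plasma cell genes summed to 1097, 365 and 571 CPM in CD38-positive and 1838, 1236 and 3556 CPM in CD38-negative libraries, so every CD38-negative library lay above every CD38-positive one. Igha, the heavy chain of immunoglobulin A and 1 of these 12, was 1 of the 2 genes past the threshold over all genes (log2 fold change -4.40, edgeR adjusted p = 0.00246). In bulk RNA, fewer cells of a type and less RNA per cell cannot be told apart, and the part of these other cells in the levels below was not tested.

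Among the DNA methyltransferases, Dnmt1, the maintenance enzyme, was the most abundant and among the most variable. Dnmt1 (ENSMUSG00000004099, GRCm38 chromosome 9, 20907209 to 20959888, minus strand) was at 185, 134 and 125 CPM in CD38-positive replicates 1, 2 and 3 and at 221, 155 and 98.3 CPM in their CD38-negative partners. Pair 1 was highest in both populations, the CD38-negative library of pair 3 was lowest, and the populations overlapped. The fitted log2 fold change came to -0.04, with a 95% interval of -0.46 to 0.38 (SE 0.20, edgeR adjusted p = 0.983). Within pairs the difference was -0.25, -0.21 and 0.35, so the sign changed between pairs. The summed level of 20 proliferation genes, such as Mki67 and Top2a, was also at its highest in pair 1 among the CD38-negative libraries, at 6757 CPM against 4261 and 5062 CPM in pairs 2 and 3. In the CD38-positive libraries that sum was 7112, 7372 and 4682 CPM. Its part in the Dnmt1 level was not tested.

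The de novo enzymes behaved differently from each other. Dnmt3a (ENSMUSG00000020661, chromosome 12, 3806007 to 3914443, plus strand) was at 28.4, 24.6 and 25.7 CPM in the CD38-positive libraries and 27.2, 29.2 and 25.4 CPM in the CD38-negative ones. All 6 values fell within a narrow band, and the groups overlapped. The fitted difference was -0.06 on the log2 scale (SE 0.21, interval -0.51 to 0.40, edgeR adjusted p = 0.981). Dnmt3b (ENSMUSG00000027478, chromosome 2, 153649450 to 153687730, plus strand) was at 22.1, 37.7 and 18.9 CPM in CD38-positive and 28.0, 22.7 and 14.2 CPM in CD38-negative libraries. The highest and the lowest of its 6 values differed far more than for Dnmt3a, and the highest was CD38-positive replicate 2. The log2 fold change of Dnmt3b was 0.27 (SE 0.25, interval -0.27 to 0.80, edgeR adjusted p = 0.936), with differences of -0.34, 0.73 and 0.41 in pairs 1, 2 and 3. Without pair 2 the fitted value of Dnmt3b was 0.016, and without pair 1 it was 0.57. Counts are per gene, so the long and short forms of Dnmt3a, which start at different promoters, were not separated.

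**Figure D2:**
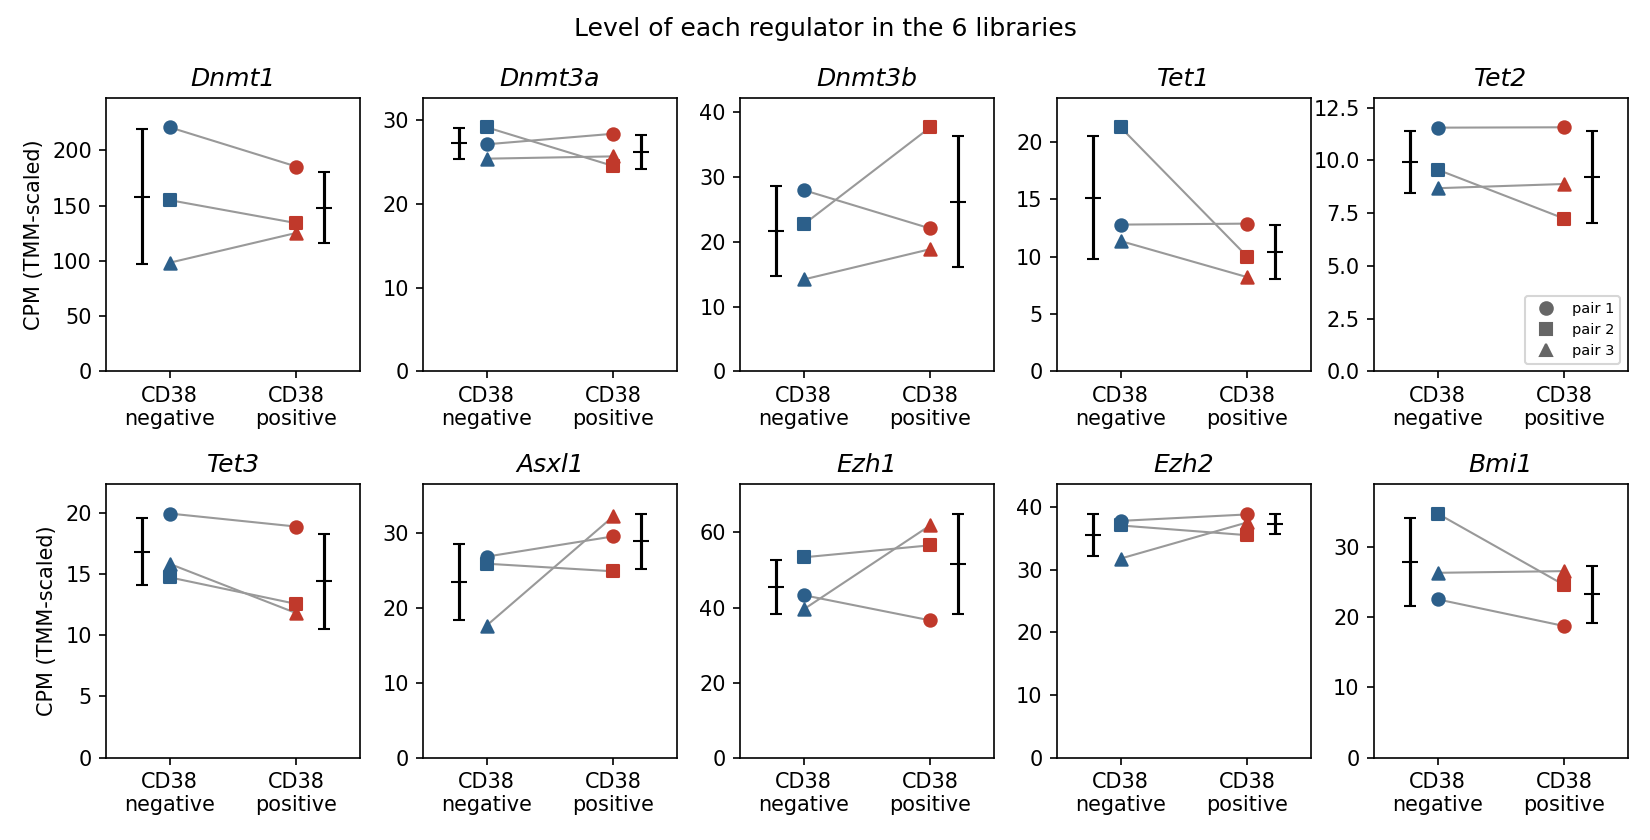
CPM of each regulator in the 6 libraries, with CD38-negative in blue and CD38-positive in red; grey lines join the libraries of a pair, and black marks give the mean ± SD (n = 3). The populations overlap in every panel, Dnmt3a and Ezh2 stay nearly level, and the CD38-negative library of pair 2 stands highest for Tet1 and Bmi1.

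Of the Tet enzymes, Tet1 had the largest fitted difference of the 10 genes. Tet1 (ENSMUSG00000047146, chromosome 10, 62804570 to 62908996, minus strand) was at 12.9, 10.0 and 8.22 CPM in CD38-positive and 12.8, 21.3 and 11.4 CPM in CD38-negative libraries. The 21.3 CPM of CD38-negative replicate 2 stood well above the other 5 values, which ran from 8.22 to 12.9 CPM. The log2 fold change was -0.52 (SE 0.28), with an unadjusted edgeR p-value of 0.0812 and an adjusted p of 0.926, and the pairs differed by 0.01, -1.09 and -0.47. Without pair 2 the fitted value was -0.24 (edgeR adjusted p = 0.9999), and without pair 1 it was -0.78 (edgeR adjusted p = 0.596). In pair 2 the summed HSC markers were at 2389 CPM in the CD38-negative and 1085 CPM in the CD38-positive library, so they differed the same way as Tet1. In pair 3 they were at 1630 and 1859 CPM, the other way from Tet1 at 11.4 and 8.22 CPM. In pair 1 they were at 1082 and 860 CPM, with Tet1 at 12.8 and 12.9 CPM. The part of the HSC markers in the Tet1 difference was not tested.

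Tet2 and Tet3 gave smaller differences. Tet2 (ENSMUSG00000040943, chromosome 3, 133463679 to 133545139, minus strand) was at 11.6, 7.24 and 8.88 CPM in CD38-positive and 11.6, 9.56 and 8.68 CPM in CD38-negative libraries. The libraries of pair 1 were level, as were those of pair 3, and only pair 2 differed by more than 0.1 on the log2 scale, at -0.40. The fitted log2 fold change of Tet2 was -0.12 (interval -0.68 to 0.44, edgeR adjusted p = 0.967). Tet3 (ENSMUSG00000034832, chromosome 6, 83362373 to 83459084, minus strand) was at 18.9, 12.6 and 11.8 CPM in CD38-positive and 19.9, 14.7 and 15.8 CPM in CD38-negative libraries. It was the 1 member of 10 that differed the same way in all 3 pairs, by -0.08, -0.23 and -0.42, where 24.5% of all tested genes kept 1 direction (11.3% lower and 13.2% higher in CD38-positive). The fitted log2 value was -0.24, with an SE of 0.24 (edgeR adjusted p = 0.936), and the 2 libraries of pair 1 lay above the other 4 whatever their population. The summed level of 8 erythroid genes, such as Hbb-bs and Klf1, was 9003, 3808 and 2524 CPM in CD38-positive and 7404, 5427 and 3649 CPM in CD38-negative libraries, also highest in pair 1, and its part in the Tet3 level was not tested.

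The PRC2 methyltransferases Ezh1 and Ezh2 differed in how steady they were. Ezh2 (ENSMUSG00000029687, chromosome 6, 47530139 to 47595341, minus strand), the enzyme linked to dividing cells, was at 38.8, 35.5 and 37.6 CPM in CD38-positive and 37.8, 37.1 and 31.8 CPM in CD38-negative libraries. The groups overlapped, and CD38-negative replicate 3 was lower than the other 5 libraries, which ran from 35.5 to 38.8 CPM. It differed by 0.07 on the log2 scale (SE 0.20, interval -0.36 to 0.50, edgeR adjusted p = 0.975). Ezh1 (ENSMUSG00000006920, chromosome 11, 101191115 to 101226463, minus strand), the form that prevails in non-dividing cells, was at 36.6, 56.6 and 61.9 CPM in CD38-positive and 43.3, 53.4 and 39.5 CPM in CD38-negative libraries. Both the lowest and the highest of its values were CD38-positive libraries. The log2 fold change of Ezh1 was 0.16 (SE 0.22, interval -0.30 to 0.63, edgeR adjusted p = 0.955), with differences of -0.24, 0.08 and 0.65 in the pairs.

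Bmi1 and Asxl1 act on the ubiquitin mark from opposite sides. Bmi1, a core subunit of PRC1 (ENSMUSG00000026739, chromosome 2, 18677018 to 18686629, plus strand), was at 18.8, 24.6 and 26.6 CPM in CD38-positive and 22.6, 34.8 and 26.4 CPM in CD38-negative libraries. CD38-negative replicate 2 was again the highest, pair 1 held the lowest value of each population, and the groups overlapped. The fitted difference was -0.25 on the log2 scale (SE 0.22, interval -0.72 to 0.22, edgeR adjusted p = 0.936). Asxl1 (ENSMUSG00000042548, chromosome 2, 153345829 to 153404007, plus strand) was at 29.5, 24.8 and 32.2 CPM in CD38-positive and 26.8, 25.9 and 17.6 CPM in CD38-negative libraries. CD38-negative replicate 3 was the low one, and the other 5 values lay between 24.8 and 32.2 CPM. The log2 fold change of Asxl1 was 0.31 (SE 0.24, interval -0.20 to 0.83, edgeR adjusted p = 0.932). The difference was 0.87 in pair 3 against 0.14 and -0.06 in pairs 1 and 2, and without pair 3 the fitted value was 0.04.

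Ratios within a library do not depend on how libraries are scaled, and 3 were compared. The log2 ratio of Ezh2 to Ezh1 per kilobase was 0.24, -0.52 and -0.56 in CD38-positive and -0.04, -0.37 and -0.16 in CD38-negative libraries. Only CD38-positive replicate 1 had more Ezh2 than Ezh1 on this scale, which used the merged length of all annotated exons. Which gene is higher rests on that choice, since over the longest protein-coding transcript their mean order is reversed, as given below. The mean difference of this ratio was -0.09 ± 0.35 (SD, n = 3 pairs; two-sided exact permutation p = 0.75, where 0.25 is the smallest that 3 pairs allow). The ratio of Dnmt1 to Dnmt3a differed by 0.02 ± 0.33 (SD, n = 3 pairs; exact permutation p = 0.75), between means of 3.65 ± 0.21 (SD, n = 3) and 3.63 ± 0.54 (SD, n = 3). That of Tet2 to Tet3 differed by 0.12 ± 0.32 (SD, n = 3 pairs; exact permutation p = 0.75). Adjusted over the 3 ratios by the Benjamini-Hochberg method, each p-value stayed at 0.75. Each of the 3 mean differences changed sign without pair 3.

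Levels of different genes were compared as RPKM, the CPM divided by the length of the gene in kilobases, over the merged length of all annotated exons. Dnmt1 led at 20.8 ± 5.99 RPKM (SD, n = 6 libraries), and was the highest of the 10 in every library. Ezh1 at 6.52 ± 1.37, Bmi1 at 6.45 ± 1.35, Ezh2 at 5.46 ± 0.38 and Dnmt3b at 4.68 ± 1.59 RPKM (SD, n = 6 each) followed, and the values of these neighbours overlapped. Asxl1 stood at 3.51 ± 0.66 RPKM, Dnmt3a at 1.61 ± 0.11, Tet3 at 0.936 ± 0.197, Tet1 at 0.826 ± 0.293 and Tet2 at 0.568 ± 0.101 (SD, n = 6 each). The values of Asxl1 overlapped those of Dnmt3b, those of Tet1 overlapped those of Tet3 and of Tet2, every Tet3 value lay above every Tet2 value, and Dnmt3a lay apart from its neighbours on both sides. Dnmt3a was seventh and Tet2 last in all 6 libraries, while Tet1 and Tet3 changed places in CD38-negative replicate 2. Dnmt1 lay above 81.7% of tested genes by this measure and Tet2 above 14.3%. Part of the order rests on the length used. Over the longest protein-coding transcript, chosen after the data were seen, Ezh2 was at 13.1 and Ezh1 at 11.5 RPKM, which reverses their order, and Tet2 at 1.04 passed Tet1 at 0.888, while Dnmt1 stayed first at 26.1.

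**Figure D3:**
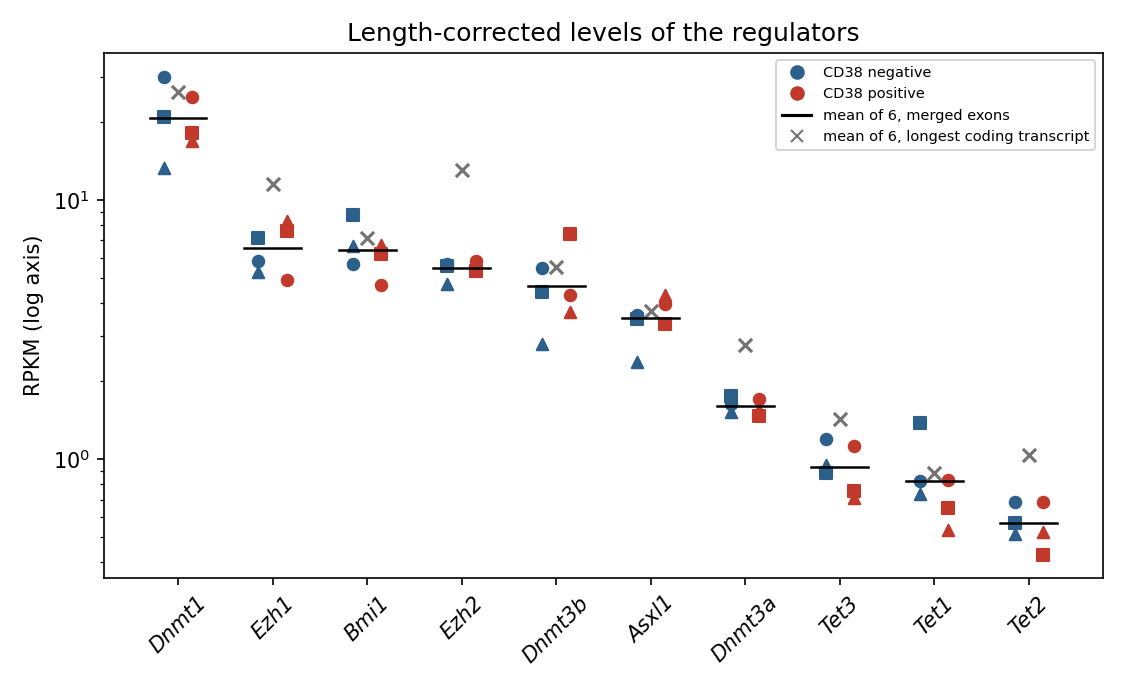
RPKM (log axis) of the 10 regulators in the 6 libraries (circles, squares and triangles for pairs 1, 2 and 3), ordered by their mean over merged exons (black bars); crosses give the mean over the longest coding transcript. Dnmt1 leads at 20.8 RPKM and the 3 Tet genes are lowest, and the crosses place Ezh2 at 13.1, above Ezh1 at 11.5.

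The members differed widely in their spread between libraries. Over the 6 libraries the coefficient of variation (CV) of CPM was 6.79% for Dnmt3a and 6.92% for Ezh2. Counting error alone gives 4.65% and 3.98% at their mean read numbers. Among the 500 tested genes nearest in level, 2.2% had a lower CV than Dnmt3a and 3.2% a lower CV than Ezh2. At the other end, Tet1 had a CV of 35.5%, Dnmt3b 34.0% and Dnmt1 28.9%, above 83.8%, 87.4% and 90.6% of their neighbours in level. The remaining 5 ran from 17.8% for Tet2 to 21.1% for Tet3, against a median of 24.3% over all tested genes. These are descriptions over 6 libraries and were not tested.

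**Figure D4:**
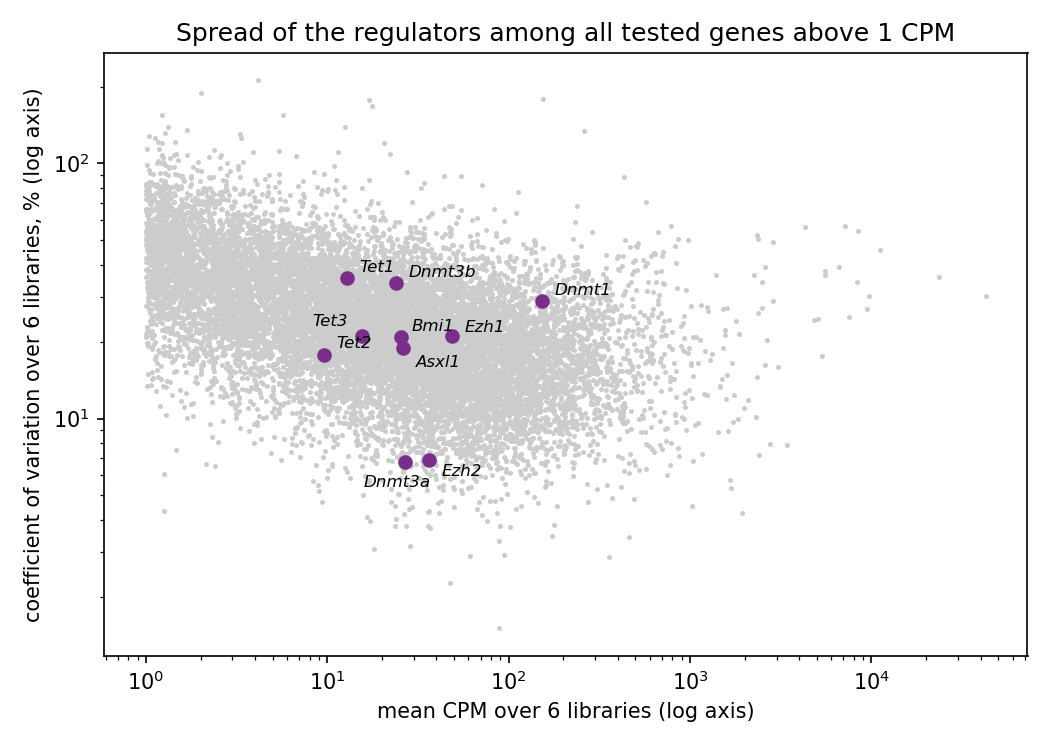
CV over the 6 libraries against mean CPM (both axes log) for tested genes above 1 CPM (grey) and the 10 regulators (purple). Dnmt3a at 6.79% and Ezh2 at 6.92% lie at the lower edge of the cloud, whereas Tet1, Dnmt3b and Dnmt1 lie in its upper part.

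Across the 6 libraries, Asxl1 and Ezh2 were the most alike pair of members (Pearson r of log2 CPM 0.93), followed by Tet2 and Tet3 (0.84). Asxl1 and Ezh2 both had their lowest value in CD38-negative replicate 3, at 17.6 and 31.8 CPM. Their other libraries ran from 24.8 to 32.2 and from 35.5 to 38.8 CPM, and how far that library sets their r was not tested. After Tet2 and Tet3 came Dnmt3a and Tet1 at 0.82 and Dnmt1 and Ezh2 at 0.80. Dnmt1 also had 0.76 with Tet2, 0.66 with Tet3, 0.61 with Dnmt3a and 0.56 with Asxl1. Tet3 and Ezh1 were the most opposed at -0.86. These values rest on 6 points that share pairs and depth, and they carry no test. The promoter windows of all 10 genes were then searched for letters of the motif bound by E2F factors, which drive genes of DNA replication. The letters TTCCCGC or TTGGCGC on either strand were found for Ezh2, Asxl1 and Dnmt1. The 10 genes have 14 windows (250 bases before to 50 after a start, GRCm38.p6), since Dnmt1 and Dnmt3a have 3 each. Of the 14, 3 (21.4%) held a match, that of Dnmt1 at 1 of its 3 starts. Of all 32851 RefSeq windows of the same length, 6.81% hold at least 1 of these motifs. The matching windows of Ezh2, Asxl1 and Dnmt1 held 31, 13 and 33 CpG dinucleotides, against a median of 7 over all windows. The share over all windows is therefore not one of windows alike in composition. No window of the 10 genes held both motifs. The stretches are shown 5′ to 3′ on the strand of the gene, with the matches in capitals. That of Ezh2 is chr6:47595019-47595170 (minus strand, position -140 to 12 from the start), that of Asxl1 is chr2:153345590-153345829 (plus strand, -240 to -1), and that of Dnmt1, from the third of its 3 listed starts, is chr9:20952579-20952608 (minus strand, 16 to 45). In Asxl1 the capitals also mark TTCAAA at -39, the reverse strand of TTTGAA, the letters of the cell cycle homology region element, which 17.9% of windows hold. Those letters also stood in windows of Dnmt1 (first listed start) and Dnmt3b, which are not printed.
Ezh2: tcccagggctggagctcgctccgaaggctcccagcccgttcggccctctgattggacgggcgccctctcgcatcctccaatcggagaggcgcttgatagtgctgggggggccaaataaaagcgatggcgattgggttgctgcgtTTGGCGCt
Asxl1: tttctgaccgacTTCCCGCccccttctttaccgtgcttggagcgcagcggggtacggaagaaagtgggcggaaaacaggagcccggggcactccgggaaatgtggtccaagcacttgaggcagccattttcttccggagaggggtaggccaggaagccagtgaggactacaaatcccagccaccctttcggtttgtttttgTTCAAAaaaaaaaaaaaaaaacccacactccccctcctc
Dnmt1: cgcatgcgcggggcagcgtTTGGCGCgggc
A match is a string of letters and says nothing about binding. Across all listed starts of the 10 genes, the windows held 2 to 57 CpG dinucleotides, against a median of 7 over all windows. The highest number was in Tet2 and the lowest at the first listed start of Dnmt1, while the third start of that gene held 33.

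By a fixed rule, the 2 tested genes most like each member over the 6 libraries were taken from 14614 genes with a mean of at least 10 reads. Wrn, a RecQ helicase, followed Dnmt1 at an r of 0.988, next to 1700008J07Rik at 0.989. For Dnmt3a they were St8sia1 (0.998) and Msrb1 (0.993), and for Dnmt3b they were Eef1a1, a translation elongation factor, at 0.993 and Def6 at 0.992. Tet1 was nearest to Limk1 and Zmiz2 (0.990 each), Tet2 to Fancd2, a DNA repair gene, at 0.994 and Srsf5 at 0.989, and Tet3 to Gm13641 (0.989). Asxl1 was nearest to Clec2f (0.984), Ezh1 to Ldlrad3 (0.993) and Scand1 (0.986), Ezh2 to Klk1 (0.992) and Ccr9 (0.989), and Bmi1 to Slc27a6 (0.997) and Tspyl4 (0.995). With 6 points and this many genes, such values describe the libraries only.

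The wider machinery was examined through 4 lists of partner genes with 70 members, of which 67 were tested. In edgeR with the block 0 passed an adjusted p-value of 0.05, as in DESeq2 (0) and limma-voom (0), and before adjustment 1 higher and 2 lower genes (4.48%) had a p-value under 0.05, against 2.47% and 2.61% of all genes (5.08% together). That count of 3 was 0 in edgeR without the block, where 417 of all 14785 genes were under 0.05. It was 0 without pair 2 (522 of all 14972 genes), 3 without pair 1 (1205 of 14945) and 8 without pair 3 (895 of 14850). In DESeq2 the count was 3 (652 of all 14785 genes) and in limma-voom 5 (809 of 14785). The median log2 fold change over the 67 was -0.15, beside 0.00 over all tested genes. All 3 genes came from the list of 27 tested partners and readers of DNA methylation (median -0.16, 9 above and 18 below 0). Idh2, a mitochondrial enzyme that makes the 2-oxoglutarate consumed by Tet enzymes, was at 248, 321 and 190 CPM in CD38-positive and 211, 184 and 159 CPM in CD38-negative libraries (log2 fold change 0.43, SE 0.20, edgeR adjusted p = 0.926). It was higher in every pair, and the groups overlapped. Zbtb33, the methyl-CpG reader Kaiso, was at 5.63, 1.98 and 4.36 CPM in CD38-positive and 4.59, 7.73 and 10.1 CPM in CD38-negative libraries (log2 fold change -0.95, edgeR adjusted p = 0.925). Pair 1 went against the other two. Zbtb4, a related reader, stood at -0.75 on the log2 scale (edgeR adjusted p = 0.925) and was lower in all 3 pairs. Uhrf1, which brings Dnmt1 to replicated DNA, was at 185, 190 and 91.1 CPM in CD38-positive and 183, 122 and 79.0 CPM in CD38-negative libraries (log2 fold change 0.28, edgeR adjusted p = 0.930). It was low in both libraries of pair 3, as Dnmt1 was.

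No gene of the Polycomb lists reached an unadjusted p-value under 0.05 in edgeR. The 9 tested PRC2 genes, such as Eed and Suz12, had a median log2 fold change of -0.09 (3 above and 6 below 0). The 21 PRC1 genes, such as Rnf2 and the Cbx readers, also had -0.09, with 9 above and 12 below. The 10 tested genes of the Bap1 complex and the lysine 27 demethylases had -0.20, with 2 above and 8 below. Without pair 2 the median of this last list was -0.033 and that of the PRC2 genes -0.018. Groups did not overlap for 2 of the 67 genes, Pcgf1 and Asxl2, both lower in every CD38-positive library, where 3.19% of all genes had CD38-negative libraries above and 6.53% had either order. Kdm6a, a demethylase of lysine 27, was the nearest to the mark, at 14.1, 9.0 and 12.1 CPM in CD38-positive and 17.0, 24.0 and 13.4 CPM in CD38-negative libraries (log2 fold change -0.60, SE 0.29, unadjusted edgeR p-value 0.0534). Kdm6a, Uhrf1, Pcgf1 and Asxl2 were named after their values were seen.

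**Figure D5:**
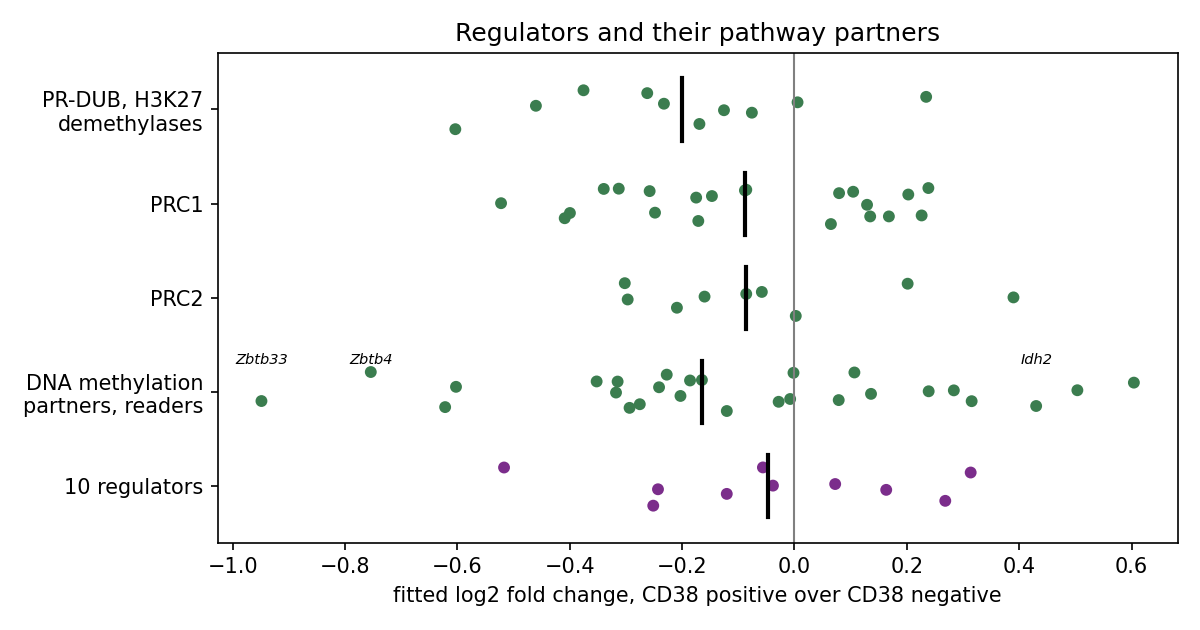
Fitted log2 fold changes of the 10 regulators (purple) and of the tested genes of 4 partner lists (green); black bars are medians, vertical scatter is for display, and names mark an unadjusted p-value under 0.05. The medians run from -0.20 to -0.05, and the 3 named genes are in the DNA methylation list.

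The pairs went different ways. Within pair 2, 2 of the 10 regulators were higher in the CD38-positive library (median difference -0.22), within pair 3 it was 8 of 10 (median 0.14), and within pair 1 it was 5 of 10 (median -0.04). Over all tested genes the shares were 48.7%, 52.5% and 50.3%. List medians of PRC1 were -0.56 in pair 2 and 0.24 in pair 3, and those of the Bap1 and demethylase list were -0.62 and -0.04. The CD38-negative library of pair 2 held the highest value of 3 of the 10 regulators (Dnmt3a, Tet1 and Bmi1) and of 23 of the 67 partner genes (34.3%), against 20.6% of all tested genes. In the same library 6 of 12 HSC markers were at their highest, and the other 6 were highest in CD38-positive replicate 3. It also held the lowest value of 13 of 20 proliferation genes, against 19.9% of all tested genes. Without pair 2 the PRC1 median was 0.11. These counts were chosen after the data were seen and carry no test.

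Genes that the Polycomb and DNA methylation systems are known to silence were read as a further description. Of 12 such Polycomb targets fixed in a list, 4 had 0 reads throughout and 5 were tested, 4 of them with fitted values above 0. Cdkn2a, the cell cycle brake that Bmi1 and Ezh2 hold down, had 0 reads in all 6 libraries, which at 3 counts allows up to 0.166 to 0.183 CPM per library. Its neighbour Cdkn2b had 0, 2 and 3 reads in CD38-positive and 1, 2 and 0 reads in CD38-negative libraries. The developmental regulators Gata4, Gata6 and Wnt1 also had 0 reads, and Sox17 had 1 in all. Cdkn1c, a cyclin-dependent kinase inhibitor, had 36, 48 and 141 reads in CD38-positive and 12, 36 and 73 in CD38-negative libraries (log2 fold change 0.89, unadjusted edgeR p-value 0.0345, or 0.231 without the block, adjusted p = 0.926), and it was higher in all 3 pairs. Cdkn1a, another such inhibitor, had 132, 132 and 122 reads in CD38-positive and 107, 106 and 75 reads in CD38-negative libraries (log2 fold change 0.40, edgeR adjusted p = 0.930), with no overlap. Hoxa9, a homeobox gene of blood progenitors, was not silent, with 522, 812 and 992 reads in CD38-positive and 648, 924 and 1144 in CD38-negative libraries, and it was lower in all 3 pairs (log2 fold change -0.27, edgeR adjusted p = 0.930). The B cell factors Ebf1 and Pax5 had 803 and 138 reads in all, with log2 fold changes of 0.07 and 0.14. Of 12 germline genes that promoter methylation is known to silence, 5 had 0 reads throughout. Sycp3 and Ddx4 were the 2 tested, with 114 and 149 reads in all and log2 fold changes of 0.20 and 0.01. Among those not tested, Dazl had 4, 7 and 9 reads in CD38-positive and 20, 6 and 22 in CD38-negative libraries. Tex11 had 11, 2 and 0 reads in CD38-positive and 17, 0 and 0 in CD38-negative libraries. Hormad1 had 25 reads in CD38-positive replicate 3 and 0 to 2 in the other libraries. Dazl, Tex11 and Hormad1 were named, like Cdkn1c, after their values were seen.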

How the data were processed

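RNA was measured in 3 CD38-positive and 3 CD38-negative libraries. The authors deposited raw read counts per Ensembl gene, without a header; per the submitters' processing notes cutadapt, STAR, HTSeq 0.6.1p1 and the builds GRCm38 and mm10 were used. Strand setting and annotation release are not given in the sources used here. Symbols matched 49326 of 49585 identifiers. Coordinates and exon lengths came from GENCODE M21 (GRCm38), promoter windows from RefSeq (GRCm38.p6), where 10 of 10 members had a window. With strand unknown, antisense reads cannot be told apart: genes on the other strand of Asxl1 (2500004C02Rik) and Ezh2 (Gm26625) had 16.7% and 8.20% as many reads as those members, and other overlapping genes at most 1.80%.

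In R 4.3.3, filterByExpr kept 14785 genes, TMM factors scaled the libraries, and edgeR 4.0.16 (estimateDisp, glmQLFit, glmQLFTest) was fitted to all 6 with pair plus population, since the design text lists the libraries in pairs. The paired libraries' deviations from their group means had correlations of 0.32, 0.12 and 0.21. Differences within pairs and correlations used log2 CPM after adding 0.5 counts; standard errors and 95% intervals came from the quasi-F statistic. Replicates differed beyond sampling noise (chi-square of at least 47.4 per degree of freedom). With the pair as a block, the edgeR p-values set a difference against spread within pairs of pools, since spread shared by a pair is taken out. That spread is partly borrowed from other genes, so it is not a gene's own spread alone. For Dnmt3a the 3 differences had an SD of 0.17, and the SE was 0.21. The procedure was tested on simulated data. The members and lists were chosen with earlier results of these data known. Named were the members, Cd38, partner genes with the smallest unadjusted p under 0.05 and the 2 genes most like each member; others, Igha among them, are examples or were named after their values were seen. For Tet3 and Asxl1 the second such gene is not reported here. Lists of T and NK and of megakaryocyte genes summed to 132 to 333 and 112 to 264 CPM. Total counts were 16771180 to 18558610, so 3 counts are 0.166 to 0.183 CPM after TMM scaling; floors cover counting error only, since reads carry no molecular identifiers. Alternatives were no block, DESeq2 1.42.0, limma-voom (limma 3.58.1), DESeq2 size factors, unscaled totals, no filter, a mean of at least 10 counts, leaving out each pair and, for levels, the longest coding transcript.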

Additional observations from a re-analysis of the deposited data

How the results depend on the processing

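The count of regulators past the threshold was 0 of 10 under each of the 10 alternatives. Before adjustment, the count at a p-value under 0.05 was 0, except 1 (Tet1) in edgeR without pair 1. In that fit 1205 of all 14945 tested genes were under 0.05. Of the 100 alternative fold changes of the 10 genes, 94 kept their sign and 6 did not. All 6 came from fits that left out a pair, and the other settings refitted the same 6 libraries, where a change of sign is less likely. Leaving out one pair, Dnmt1 ran from -0.23 to 0.071 (0.035 without pair 2), Dnmt3a from -0.12 to 0.028, Tet2 from -0.20 to 0.0051, Ezh1 from -0.080 to 0.37 and Ezh2 from -0.012 to 0.13; Dnmt3b from 0.016 to 0.57, Tet1 from -0.78 to -0.24, Tet3 from -0.33 to -0.15, Bmi1 from -0.39 to -0.14 and Asxl1 from 0.039 to 0.49 kept theirs. The sign changed without pair 1 or pair 2 for Dnmt1, without pair 2 for Dnmt3a and Tet2, and without pair 3 for Ezh1 and Ezh2. The ratio differences ran from -0.28 to 0.068 for Ezh2 to Ezh1, from -0.14 to 0.19 for Dnmt1 to Dnmt3a and from -0.045 to 0.27 for Tet2 to Tet3, each changing sign without pair 3. Without the replicate block their exact permutation p-values were 0.8, 0.9 and 0.6. Over all genes, 2 passed with the replicate block, 0 without it, 0 with unscaled totals, 11 in DESeq2, 7 with DESeq2 size factors, 80 with no filter and 13 with a mean of at least 10 counts. Leaving out one pair gave 2 to 41 genes (2 without pair 1, 41 without pair 2, 12 without pair 3), and the cause was not tested. The DNA methylation list median was -0.018 without pair 3; those of PRC2, PRC1 and the Bap1 and demethylase list ran from -0.18 to -0.018, -0.34 to 0.11 and -0.40 to -0.033. At the members' read numbers counting error alone is 1.95% to 7.78%, and no member was near the limit of 3 counts. The biological variation that edgeR's fit used for the members was larger, at 17.6% to 24.4%. That value follows the level of a gene and is not the gene's own spread. Dnmt3a and Ezh2, with CVs of 6.79% and 6.92%, spread less than it.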
